A study of Mus musculus with 4 samples.

Results

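Oog1, Oog2, Oog3, Oog4, Pramef12, Pramel6 and Pramel7 are genes of the PRAME family, which encodes leucine-rich repeat proteins. These 7 genes were taken by symbol from a gene table of 20171 genes, and their 107 isoforms by the gene name given to each of 68012 isoforms. Single cells were collected from embryos of C57BL/6J females of 6 to 8 weeks mated with DBA/2NCrl males, after injection of human chorionic gonadotropin (hCG), and mouse embryonic stem cells (mESCs) of the male line E14 Tg2A were cultured on gelatin. Full-length cDNA molecules were counted per cell through barcodes and unique molecular identifiers (UMIs) on the PacBio platform, so that 1 UMI stands for 1 molecule whatever its length. The groups were MII oocytes of unmated females at 20 h after hCG (10), zygotes at 22 to 24 h (9), early 2-cell embryos (E2C) at 30 to 32 h (5 embryos, 10 cells) and late 2-cell embryos (L2C) at 46 to 48 h (6 embryos, 11 cells). They went on with 4-cell embryos at 54 to 56 h (5, 17 cells), 8-cell embryos at 68 to 70 h (4, 26 cells) and 16-cell embryos at 78 to 80 h (4, 38 cells). The 22 cells of the 32-cell stage (78 to 80 h), 13 early blastocyst cells (88 to 90 h) and 5 mESCs carry no embryo number and are described without a test. A further batch held 4 intact oocytes, 6 pieces named as 1/2 oocytes and 6 as 1/4 oocytes.

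The PRAME family expanded in rodents into clusters of related genes, many of them active in germ cells and early embryos. The Oog genes are named for their oocyte expression, and Oog1 protein binds RalGDS, an exchange factor for the small GTPase Ral. Pramel7 protein serves as a substrate adaptor of a cullin 2 ubiquitin ligase that directs the degradation of UHRF1, the partner of the maintenance DNA methyltransferase DNMT1, and lies downstream of LIF and STAT3 in stem cells. Pramel6 is its neighbour in the genome and a member of the same family.

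Oog2 (chr4:144190719-144196934, plus strand), Oog3 (chr4:144157557-144162663, minus strand), Oog4 (chr4:143437164-143450324, minus strand) and Pramef12 (chr4:144391674-144408464, minus strand, Pramel13 in RefSeq) lie on chromosome 4 of build GRCm38. Pramel7 (chr2:87489087-87497093, minus strand) and Pramel6 (chr2:87506565-87510872, plus strand) lie side by side on chromosome 2, and Oog1 (chr12:87602688-87608850, plus strand) lies on chromosome 12. Local alignment of the longest protein-coding transcript of each gene in GENCODE gave 75.4% to 80.7% identical bases between any pair of Oog1 to Oog4, and 63.2% between Pramel6 and Pramel7. Pramel6 was nearer to Oog1 to Oog4, at 67.7% to 68.4%. Oog1 was 98.8% identical over 2451 aligned bases to Gm10436, which also lies on chromosome 12 (chr12:88175589-88181894) and is no member of the 7. Reads of Oog1 and Gm10436 could thus have been split between them, and the level of Oog1 is uncertain to that extent.

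The promoters of Oog1 to Oog4 share a stretch that the choice of genes did not use. All 7 genes matched an entry in the RefSeq promoter table (GRCm38.p6, 250 bases before the start site to 50 after it). The 4 Oog promoters each held the 31-base pattern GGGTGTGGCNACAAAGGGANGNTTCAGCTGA, the most upstream of the 31-base windows with the most positions identical in all 4, beginning 43 bases before the RefSeq start of Oog1 and 65 to 67 bases before those of the other 3. They are printed 5′ to 3′ with this stretch in capitals, followed by the promoter of Pramel6, where capitals mark the window that matched best (19 of the 28 defined bases).
Oog1, chr12:87602415-87602714, plus strand: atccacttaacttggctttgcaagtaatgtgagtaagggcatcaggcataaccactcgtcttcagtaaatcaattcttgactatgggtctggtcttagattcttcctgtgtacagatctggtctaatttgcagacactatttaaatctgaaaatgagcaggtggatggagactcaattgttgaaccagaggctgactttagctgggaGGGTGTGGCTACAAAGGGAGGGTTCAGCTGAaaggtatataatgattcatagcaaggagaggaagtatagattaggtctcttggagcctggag
Oog2, chr4:144190467-144190766, plus strand: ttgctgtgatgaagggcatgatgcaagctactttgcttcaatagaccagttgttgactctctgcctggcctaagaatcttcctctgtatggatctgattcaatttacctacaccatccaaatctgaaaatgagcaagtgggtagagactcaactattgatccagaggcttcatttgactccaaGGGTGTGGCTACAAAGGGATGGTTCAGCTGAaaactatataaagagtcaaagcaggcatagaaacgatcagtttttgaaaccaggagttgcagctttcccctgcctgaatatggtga
Oog3, chr4:144162602-144162901, minus strand: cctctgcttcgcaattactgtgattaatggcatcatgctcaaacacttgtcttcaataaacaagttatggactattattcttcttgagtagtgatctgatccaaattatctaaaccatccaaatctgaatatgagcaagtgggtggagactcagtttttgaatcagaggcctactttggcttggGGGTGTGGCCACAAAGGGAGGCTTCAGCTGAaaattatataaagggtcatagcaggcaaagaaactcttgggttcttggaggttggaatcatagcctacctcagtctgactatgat
Oog4, chr4:143450275-143450574, minus strand: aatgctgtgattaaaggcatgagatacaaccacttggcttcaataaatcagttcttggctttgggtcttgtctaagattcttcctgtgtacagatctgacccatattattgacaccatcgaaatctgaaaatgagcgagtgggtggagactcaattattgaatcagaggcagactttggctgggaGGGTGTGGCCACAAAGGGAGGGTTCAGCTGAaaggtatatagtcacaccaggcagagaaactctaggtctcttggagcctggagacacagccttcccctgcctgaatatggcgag
Pramel6, chr2:87506315-87506614, plus strand: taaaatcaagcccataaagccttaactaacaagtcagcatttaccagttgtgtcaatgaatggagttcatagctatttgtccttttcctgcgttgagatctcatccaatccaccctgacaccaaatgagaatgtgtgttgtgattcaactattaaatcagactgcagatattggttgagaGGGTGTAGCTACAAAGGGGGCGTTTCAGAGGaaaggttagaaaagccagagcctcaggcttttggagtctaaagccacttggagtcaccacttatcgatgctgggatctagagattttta

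Searched on both strands, the pattern was found in 6 of 32851 promoters (0.0183%), and besides the Oog genes these were Gm13084 of the same family and Gm2042. On the gene's strand, at least 20 of the 28 defined bases, a limit set after the matches had been seen, were present in 10 of the 43 promoters of PRAME family genes in the table and in 16 of all 32851. The best windows in Pramef12 and Pramel7 matched 15 and 14 bases. A TATAAA box, present in 13.6% of all promoters, was found in Oog2 and Oog3, and the STAT pattern TTCNNNGAA, present in 8.30%, was in none of the 7 promoters. These searches covered only the bases around each RefSeq start. For Pramel7, 311 of 514 isoform UMIs began 4494 to 5273 bases upstream of that start, where no sequence was searched. The most abundant isoforms of Oog1, Oog2, Oog3 and Oog4 began 343, 184, 143 and 118 bases upstream of it. The shared stretch thus lies downstream of their starts, and that of Oog1 lies outside the searched bases. Isoforms that began within 50 bases of the RefSeq start held 32.3%, 17.9%, 2.04% and 5.99% of the isoform UMIs of these genes. Whether the stretch acts in a promoter was not tested.

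The cells of the normalized tables held between 4985 and 389775 gene UMIs, with stage medians from 22726 UMIs in mESCs to 246466 in zygotes. Values are copies per 100,000 UMIs of a cell, averaged over the cells of an embryo, so a lower value cannot be told apart from the same amount of RNA in a cell with more RNA of other genes. The summed level of 8 oocyte markers was 3886 to 4990 in oocytes, 2593 to 4515 in zygotes and 71.3 to 290.5 in L2C embryos, and it was carried by H1foo, Oosp1, Btg4 and Gdf9. By stage mean H1foo, Oosp1 and Gdf9 were highest in oocytes, Btg4 and Zp1 in zygotes, Bmp15 and Zp2 in E2C embryos and Zp3 in L2C embryos. Of the 7 markers of the 2-cell stage, Zscan4c, Zscan4d, Tcstv3, Usp17la and Zfp352 had their highest stage mean at E2C. Tcstv1 was highest in zygotes and Zscan4f at L2C, and the summed level was 34.9 to 82.5 in E2C and 3.29 to 42.4 in L2C embryos. Of 6 trophectoderm markers, Krt8, Krt18, Elf3 and Gata3 had their highest stage mean in blastocyst cells, Cdx2 at 16-cell and Tfap2c at 8-cell. The oocytes carried little signal of cumulus cells (5 of the 7 markers were in the table, with a summed level of 4.42 to 9.81, mostly Cyp19a1), and 3 of the 4 sperm markers were in the table, with a summed level of at most 2.52 in any oocyte or zygote.

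Oog3 was the most abundant of the 7 genes in oocytes and E2C embryos, and 5 genes, Oog1 to Oog4 and Pramef12, formed a maternal group. In the 10 oocytes the lowest, median and highest level was 249.95, 387 and 492.98 copies per 100,000 for Oog3, and 75.9, 89.1 and 139 for Oog1. Oog4 ranged from 27.6 to 75.8 with a median of 45.3, Oog2 from 15.1 to 30.4 with a median of 22.9, and Pramef12, a gene known for its role in the male germ line, from 16.6 to 27.9 with a median of 20.2. The ranges of Oog2 and Pramef12 overlapped almost completely, whereas no oocyte had less Oog3 than any had of another member.

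Pramel6 and Pramel7 were near the detection limit before the late 2-cell stage. Pramel6 had a UMI in 6 of 10 oocytes, 8 of 9 zygotes and 4 of 10 E2C blastomeres, and its oocyte mean was 1.002 ± 1.01 copies per 100,000 (SD, n = 10). Pramel7 had a UMI in 7 of 10 oocytes, 7 of 9 zygotes and 6 of 10 E2C blastomeres, with an oocyte mean of 1.41 ± 1.52 (SD, n = 10).

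**Figure D1:**
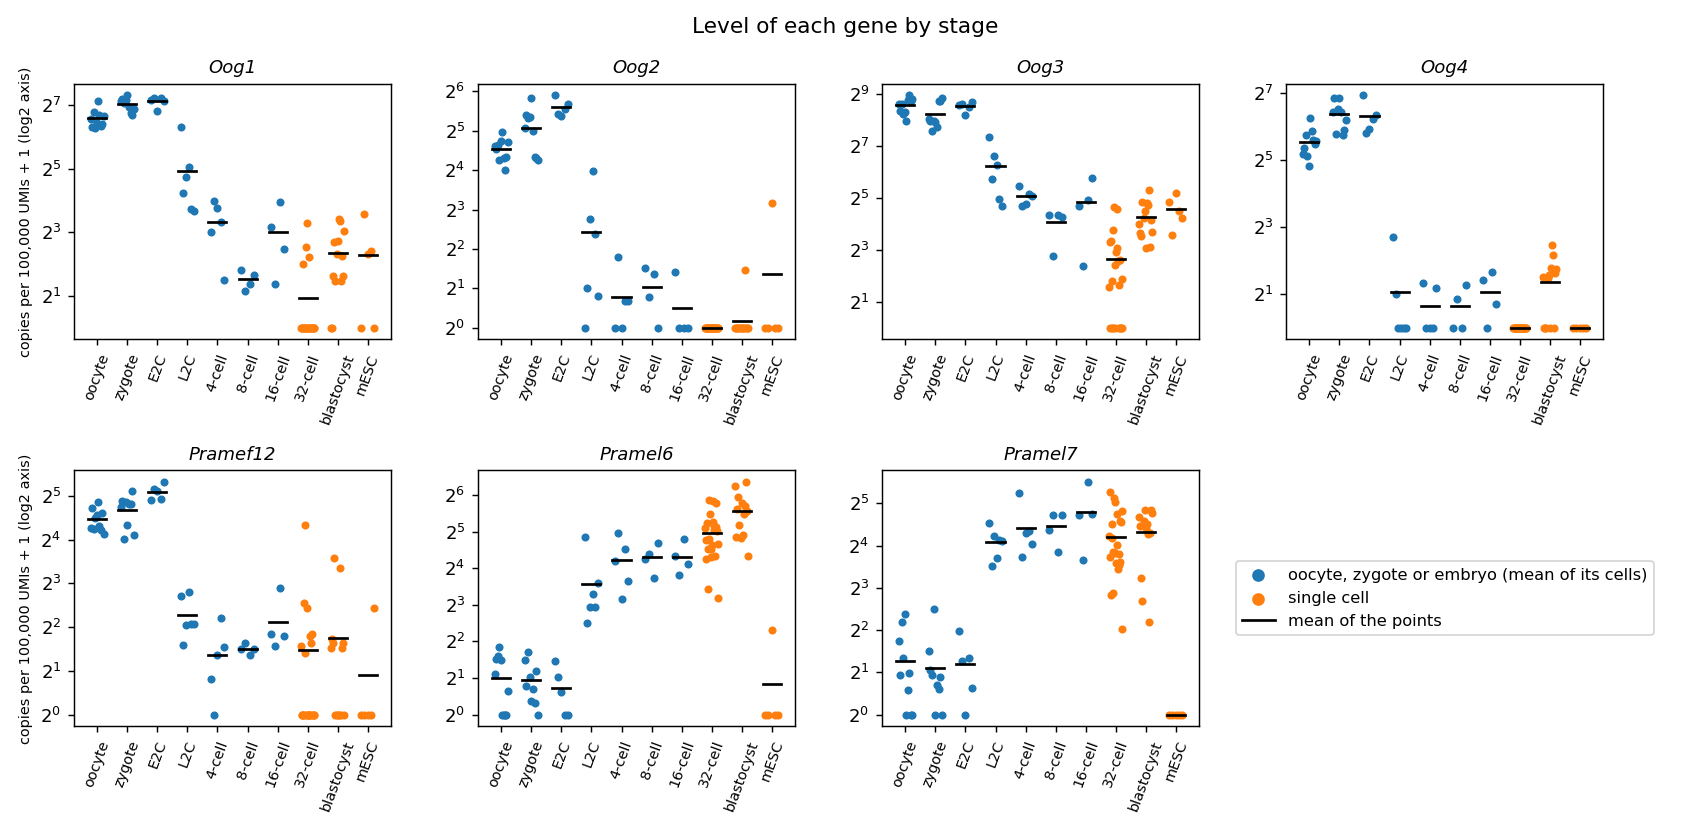
Level of each gene by stage, in copies per 100,000 UMIs plus 1 on a log2 axis. Blue points are oocytes, zygotes or embryos, orange points are single cells without an embryo number, and bars are means. Oog1 to Oog4 and Pramef12 stand high from oocyte to E2C and fall at L2C, where Pramel6 and Pramel7 rise.

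Between oocyte and zygote no member met the call, a log2 fold change over 1 in size with an unadjusted p under 0.01, which 3.24% of the 11682 genes tested met. Oog4 came closest. Its level was 46.2 ± 13.8 in oocytes (SD, n = 10) and 81.9 ± 24.0 in zygotes (SD, n = 9), a log2 fold change of 0.91 ± 0.20 (SE, limma adjusted p = 7.11e-04), and the groups overlapped. Oog4 was higher in zygotes within run 1 (38.1 against 87.3) and within run 3 (49.0 against 62.0), while run 2 held 1 oocyte (75.8) and 2 zygotes (mean 101). Oog1 changed by 0.50 ± 0.18 (adjusted p = 0.0468), and was higher in zygotes within runs 1 and 3.

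The level of Oog3 differed between runs within each stage. Oocytes of run 1 held 302 to 388 copies and those of run 3 held 418 to 492.98, while zygotes of run 1 held 188 to 264 and those of run 3 held 417 to 458. Zygotes of run 3 thus overlapped oocytes of run 3, and those of run 1 lay below all oocytes of run 1. Over all runs the log2 fold change of Oog3 was -0.43 ± 0.20 (adjusted p = 0.147), and with the run in the model it was -0.30.

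From zygote to E2C, which 7.27% of genes passed, no member was called. Oog2 averaged 32.7 ± 12.7 in 9 zygotes and 47.3 ± 7.22 in 5 E2C embryos (0.52 ± 0.29, limma adjusted p = 0.253), while the means of Pramef12 were 24.5 ± 6.21 and 33.1 ± 4.05 (0.43 ± 0.23, adjusted p = 0.218). In the sister blastomeres of the 5 E2C embryos the higher cell stood at 1.04 to 1.14 times the lower for Oog1 and at 1.03 to 1.40 times for Oog3. The ratio was 1.06 to 1.40 for Oog2, 1.08 to 1.48 for Oog4 and 1.02 to 1.63 for Pramef12.

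All 7 genes were called between E2C and L2C, 5 of them lower and 2 higher. At this step 48.4% of the genes tested were called, 22.8% lower and 25.6% higher, and the median log2 fold change was 0.03 over all genes and -2.81 over the 7.

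Oog4 fell the furthest. The 5 E2C embryos held 122, 55.5, 60.5, 74.3 and 81.6 copies and the 6 L2C embryos 5.56, 1.004, 0, 0, 0 and 0. The fitted log2 fold change was -5.91 ± 0.37 (limma adjusted p = 2.70e-20), and it ran from -8.58 with a pseudocount of 0.1 to -3.05 with a pseudocount of 10. In UMIs this was 665 of 848348 in E2C cells and 2 of 599502 in L2C cells, a ratio of 235 with a 95% interval of 64.8 to 1944 (exact binomial, counting error only).

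Oog2 stood at 58.5, 42.0, 40.6, 45.5 and 49.7 in the E2C embryos and at 0, 1.004, 5.72, 14.7, 4.23 and 0.736 in the L2C embryos, with no overlap. Its log2 fold change was -3.65 ± 0.40 (adjusted p = 1.52e-11). Pramef12 went from 29.1 to 38.9 over the E2C embryos down to 2.01 to 5.99 over the L2C embryos, a change of -2.97 ± 0.31 (adjusted p = 2.36e-12), which was -1.67 with a pseudocount of 10 and -1.25 from the summed isoform table, where Pramef12 has few UMIs.

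Oog1 and Oog3 fell but were read in every L2C embryo and cell. Oog1 stood at 142, 148, 112, 147 and 138 in the E2C embryos and at 77.9, 17.7, 25.8, 32.3, 12.4 and 11.7 in the L2C embryos (log2 fold change -2.77 ± 0.34, adjusted p = 2.45e-10). Oog3 stood at 380, 392, 294, 359 and 408 and then at 161, 52.5, 97.3, 75.1, 29.9 and 24.6 (-2.81 ± 0.37, adjusted p = 2.41e-09). Neither gene's groups overlapped, and the highest L2C value of both was in embryo 1, of which 1 cell with 17971 UMIs was sequenced. Without it the changes were -2.88 for Oog1 and -2.89 for Oog3, and all 7 genes were still called.

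Pramel7 rose from 2.94, 1.42, 0, 1.52 and 0.543 in the E2C embryos to 22.3, 10.5, 17.8, 12.1, 16.5 and 16.4 in the L2C embryos. Its log2 fold change was 2.92 ± 0.50 (adjusted p = 1.12e-06). Pramel6 rose from 1.75, 1.05, 0.545, 0 and 0 to 27.8, 4.70, 6.71, 8.82, 6.65 and 11.1 (2.49 ± 0.44, adjusted p = 2.53e-06). Every L2C embryo lay above every E2C embryo for both genes, and each of the 11 L2C blastomeres held a UMI of both. These folds are on the log2(value + 1) scale, which understates changes from levels near 1, and with a pseudocount of 10 Pramel6 no longer met the call (0.75).

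**Figure D2:**
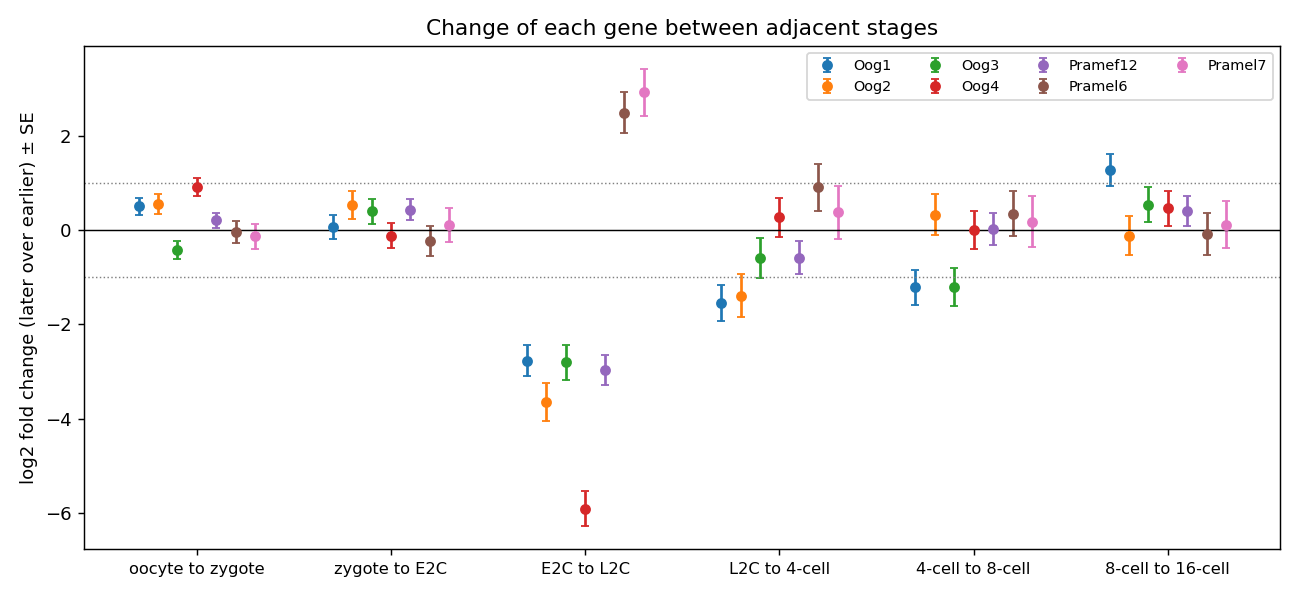
Log2 fold change of each gene between adjacent stages, later over earlier, with bars of 1 SE from the limma fit and dotted lines at 1 and -1. The 7 genes lie beyond the dotted lines at E2C to L2C, 5 below and 2 above.

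After the late 2-cell stage Oog1, Oog2 and Oog3 were each called lower at a later step, whereas Oog4 and Pramef12 were called at none of the 3. Oog4 averaged 0.565, 0.563 and 1.11 copies at 4-cell, 8-cell and 16-cell (4, 5 and 10 UMIs in all), and Pramef12 1.57, 1.84 and 3.37 (11, 14 and 30 UMIs). From L2C to 4-cell, where 6.69% of genes were called and 4.28% called lower, Oog1 fell to 9.05 ± 5.06 (SD, n = 5; log2 fold change -1.56 ± 0.38, adjusted p = 0.0121). Oog2 met the call (-1.39 ± 0.46, unadjusted p = 0.00338) with an adjusted p of 0.0771, from 28 UMIs to 3. Their ratio was 8.16 with a 95% interval of 2.52 to 41.9 (exact binomial, counting error only), and L2C embryo 4 held 14 of the 28 UMIs. Oog1 was no longer called without 4-cell embryo 5 (-0.95), and Oog2 was not without L2C embryo 3 (-1.15) or L2C embryo 4 (-1.04).

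From 4-cell to 8-cell, where 15.0% of genes were called and 10.5% called lower, Oog1 fell to 1.88 ± 0.57 (SD, n = 4; -1.22 ± 0.36, adjusted p = 0.0133) and Oog3 from 32.3 ± 7.33 to 15.7 ± 6.64 (-1.21 ± 0.40, adjusted p = 0.0272). Oog3 was not called without 4-cell embryo 4 (-1.19) or 5 (-1.23), nor without 8-cell embryo 2 (-0.79), which held 5.75 copies beside 18.0 to 19.4 in the other 3. From 8-cell to 16-cell, where 3.36% were called and 1.90% called higher, Oog1 was higher again at 7.90, 1.58, 14.4 and 4.52 in the 4 embryos (1.26 ± 0.34, adjusted p = 0.0377). It was not called without 16-cell embryo 1 (1.10), and without 16-cell embryo 2 Oog3 was called as well (1.14). The 8-cell embryos held 1.25 to 2.51 copies of Oog1, so these stages overlapped. Abundant oocyte markers also had higher means at 16-cell: Gdf9 (15.2 to 29.3), H1foo (55.5 to 105), Btg4 (42.2 to 76.6) and Oosp1 (40.7 to 87.4). Zp2 and Zp3 were lower, and none of the 8 oocyte markers was called at this step. Whether the higher level of Oog1 came from new transcription was not tested.

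Neither Pramel6 nor Pramel7 was called at any of the 3 steps after L2C. Pramel7 averaged 15.9 ± 4.20 at L2C (SD, n = 6), 20.5 ± 9.62 at 4-cell (n = 5), 21.0 ± 5.70 at 8-cell (n = 4) and 26.9 ± 13.4 at 16-cell (n = 4). Pramel6 averaged 10.97 ± 8.54, 17.8 ± 8.70, 18.8 ± 5.10 and 18.9 ± 5.83 at the same stages, and neighbouring stages did not differ beyond their spread.

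In the cells without an embryo number, Pramel6 had a median of 29.1 in the 32-cell stage (8.18 to 57.1 over 22 cells) and 46.7 in blastocyst cells (19.1 to 81.0 over 13 cells). Pramel7 had a median of 14.2 (3.05 to 37.8) and 20.9 (3.54 to 27.6). Every one of these 35 cells held a UMI of both genes. In the 5 mESCs both genes were at or near 0. Pramel7 had 0 UMIs among 103590, which allows up to 2.90 copies per 100,000, so that the blastocyst mean of 19.01 was at least 6.56-fold higher. Pramel6 had 1 UMI, a ratio of 48.2 with a 95% interval of 8.59 to 1912 against blastocyst cells (exact binomial). These limits cover counting error only, not the spread between cells or runs. Of 7 markers of the inner cell mass and mESCs, Zfp42 (mean 111), Pou5f1 (64.5), Klf2 (34.3), Esrrb (10.8) and Sox2 (9.53) were highest in mESCs by stage mean. The other markers were not. Nanog stood at 5.98 in mESCs, below its means in 32-cell blastomeres (8.53) and blastocyst cells (8.55), and Fgf4 was highest at L2C (12.6).

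Low levels of maternal members were read in late cells alongside other oocyte RNAs. Oog3 had a mean of 22.8 in mESCs, 18.4 in blastocyst cells and 5.24 in 32-cell blastomeres, or 6.08%, 4.90% and 1.40% of its oocyte mean. In the same order Oog1 stood at 4.06%, 4.28% and 0.979%, Oog2 at 7.19%, 0.613% and 0, and Pramef12 at 4.18%, 11.1% and 8.44%. Gdf9, H1foo, Btg4 and Oosp1, the 4 most abundant of the 8 oocyte markers, stood at 3.21% to 6.13% of their oocyte means in mESCs, 3.41% to 12.03% in blastocyst cells and 0.318% to 1.06% in 32-cell blastomeres. The less abundant markers differed: in the same order Bmp15 stood at 0, 0.736% and 2.71%, and Zp1 at 0, 0 and 10.7%. Zp3 stood at 14.2%, 9.45% and 7.91%, and Zp2 was at 0 in all of these cells. Over the whole list of 8 markers, the summed level was 115 to 224 copies in mESCs (3 genes at 0), 206 to 642 in blastocyst cells (2 at 0) and 8.23 to 72.9 in the 32-cell stage (1 at 0). The mESCs were sequenced in run 3 with 4 oocytes and 3 zygotes, the blastocyst cells in run 1 with 5 and 4, and the 32-cell blastomeres in run 2 with 1 and 2, and the part of such shared runs in these levels was not tested. Oog4 had no UMI in the 32-cell stage or in mESCs and 10 UMIs in blastocyst cells.

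**Figure D3:**
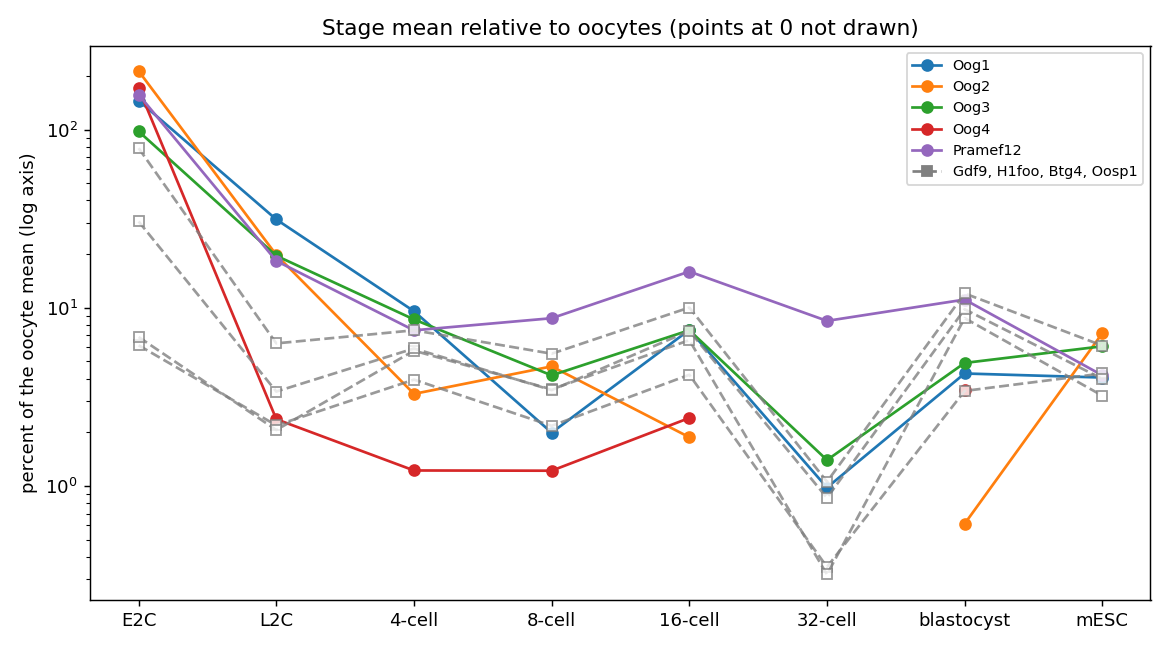
Stage mean as a percent of the oocyte mean on a log axis, for the 5 maternal members (solid) and for Gdf9, H1foo, Btg4 and Oosp1 (grey, dashed). From 16-cell to mESC, Oog1, Oog3 and the 4 markers are all lowest at the 32-cell stage, while Pramef12 is lowest in mESCs.

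The isoforms of a gene are sorted by how their splice junctions relate to the annotation: full splice match (FSM), incomplete splice match (ISM), new combinations of known sites (NIC) and isoforms with a new site (NNC). Oog1 had 32 isoforms, of which 22 were NNC, and Oog2 had 26, of which 12 were NIC. Oog3 had 18, Pramel7 10, Oog4 9, Pramel6 8 and Pramef12 4. A single isoform dominated Oog3 (PB.54725.25, FSM, 4 exons, 75.6% of its isoform UMIs) and Oog4 (PB.54698.4, FSM, 4 exons, 78.7%), whereas the leading isoforms of Oog1 (PB.17753.24, FSM, 35.9%), Oog2 (PB.54714.18, FSM, 34.8%), Pramel6 (PB.42622.37, ISM, 33.9%) and Pramel7 (PB.42625.19, ISM, 33.3%) each took about the same share. Pramef12 is poorly represented in the isoform table, with 55 isoform UMIs against 1400 gene UMIs (3.93%). Among the 1305 genes with at least as many gene UMIs, 2.45% had under 5%, and the median was 83.5%.

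Of 59 member isoforms tested, 30 were called between E2C and L2C, 28 lower and 2 higher, beside 26.0% of all 29409 isoforms, 13.1% lower and 12.9% higher. The falls were in 10 isoforms of Oog1, 6 of Oog2, 7 of Oog3 and 5 of Oog4. The rises were in the ISM isoforms PB.42622.37 of Pramel6 (1.47 ± 0.47, adjusted p = 0.0124) and PB.42625.19 of Pramel7 (1.63 ± 0.55, adjusted p = 0.0170).

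The isoforms of Oog1 did not fall alike. The full-length PB.17753.24 (4 exons, 2280 bases) had stage means of 35.8 in oocytes, 56.6 in zygotes and 47.4 at E2C, and 0.303 at L2C (log2 fold change -5.29 ± 0.43, adjusted p = 2.31e-15). PB.17753.228, an ISM isoform of 2 exons that begins 4123 bases downstream of the RefSeq start, went from 23.8 at E2C to 7.78 at L2C (-2.22 ± 0.48, adjusted p = 2.03e-04). Of the Oog1 isoform signal, PB.17753.24 took 32.3% at E2C and 3.11% at L2C (adjusted p = 0.00611), and the FSM isoform PB.17753.51 took 6.48% and then 0 (adjusted p = 5.85e-04). The share of PB.54714.16, a NIC isoform of Oog2, went from 20.0% to 0 (adjusted p = 0.00119), where L2C embryos held 15 isoform UMIs of Oog2 in all, in 3 of the 6 embryos. These 3 of 76 member isoforms passed the share test at this step, all lower, beside 2.68% of the 38953 isoforms tested (1.82% lower), and L2C cells held 74 isoform UMIs of Oog1 in all.

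No isoform share of Oog3 passed. PB.54725.25 took 67.4% ± 4.81 of its isoform UMIs at E2C (SD, n = 5) and 74.1% ± 7.96 at L2C (SD, n = 6), and the 2-exon ISM isoform PB.54725.27 took 21.6% ± 3.29 and 19.03% ± 7.74. No share of a member isoform passed at any other adjacent step. There the limma share test called 1 isoform in all from oocyte to zygote (0.00203% of those tested), 216 from zygote to E2C (0.468%), 4 from L2C to 4-cell (0.0109%), 7 from 4-cell to 8-cell (0.0196%) and 0 from 8-cell to 16-cell.

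Pramel7 was read from a start far upstream of its RefSeq start. In all, 8 of its 10 isoforms, with 311 of 514 isoform UMIs (60.5%), began 4494 to 5273 bases upstream of that start, around the 5′ end of the GENCODE gene. Pooled over cells, they took 20 of 46 isoform UMIs at L2C (43.5%), 54 of 73 at 4-cell (74.0%), 60.4% at 8-cell, 66.7% at 16-cell, 71.7% at 32-cell and 57.1% in blastocyst cells, and no share of a Pramel7 isoform passed the test at any step. Isoform PB.42625.16, the most abundant of them (NIC, 4 exons, 2742 bases), rose from 0.690 at L2C to 5.23 at 4-cell (1.965 ± 0.53, adjusted p = 0.0265), where 4.29% of isoforms were called, 2.61% higher and 1.68% lower. PB.42622.2, a 5-exon NIC isoform of Pramel6, rose at the same step from 2.174 to 6.57 (1.65 ± 0.46, adjusted p = 0.0345). Both other isoforms called there had an adjusted p over 0.05, PB.42625.23 of Pramel7 (1.19 ± 0.43, adjusted p = 0.146) and PB.17753.228 of Oog1 (-1.38 ± 0.52, adjusted p = 0.170). At the other steps few member isoforms were called. There were 0 from oocyte to zygote (1.48% of all isoforms) and 0 from 8-cell to 16-cell (1.97%). Isoforms PB.54714.38 of Oog2 (1.22 ± 0.24, adjusted p = 3.16e-04) and PB.54698.67 of Oog4, with 20 UMIs in all and named after its value was seen (1.61 ± 0.22, adjusted p = 2.89e-07), rose from zygote to E2C (5.18% called, 2.23% higher). PB.54725.25 of Oog3 fell from 4-cell to 8-cell (-1.68 ± 0.47, adjusted p = 0.0154; 7.93% called, 4.30% lower).

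**Figure D4:**
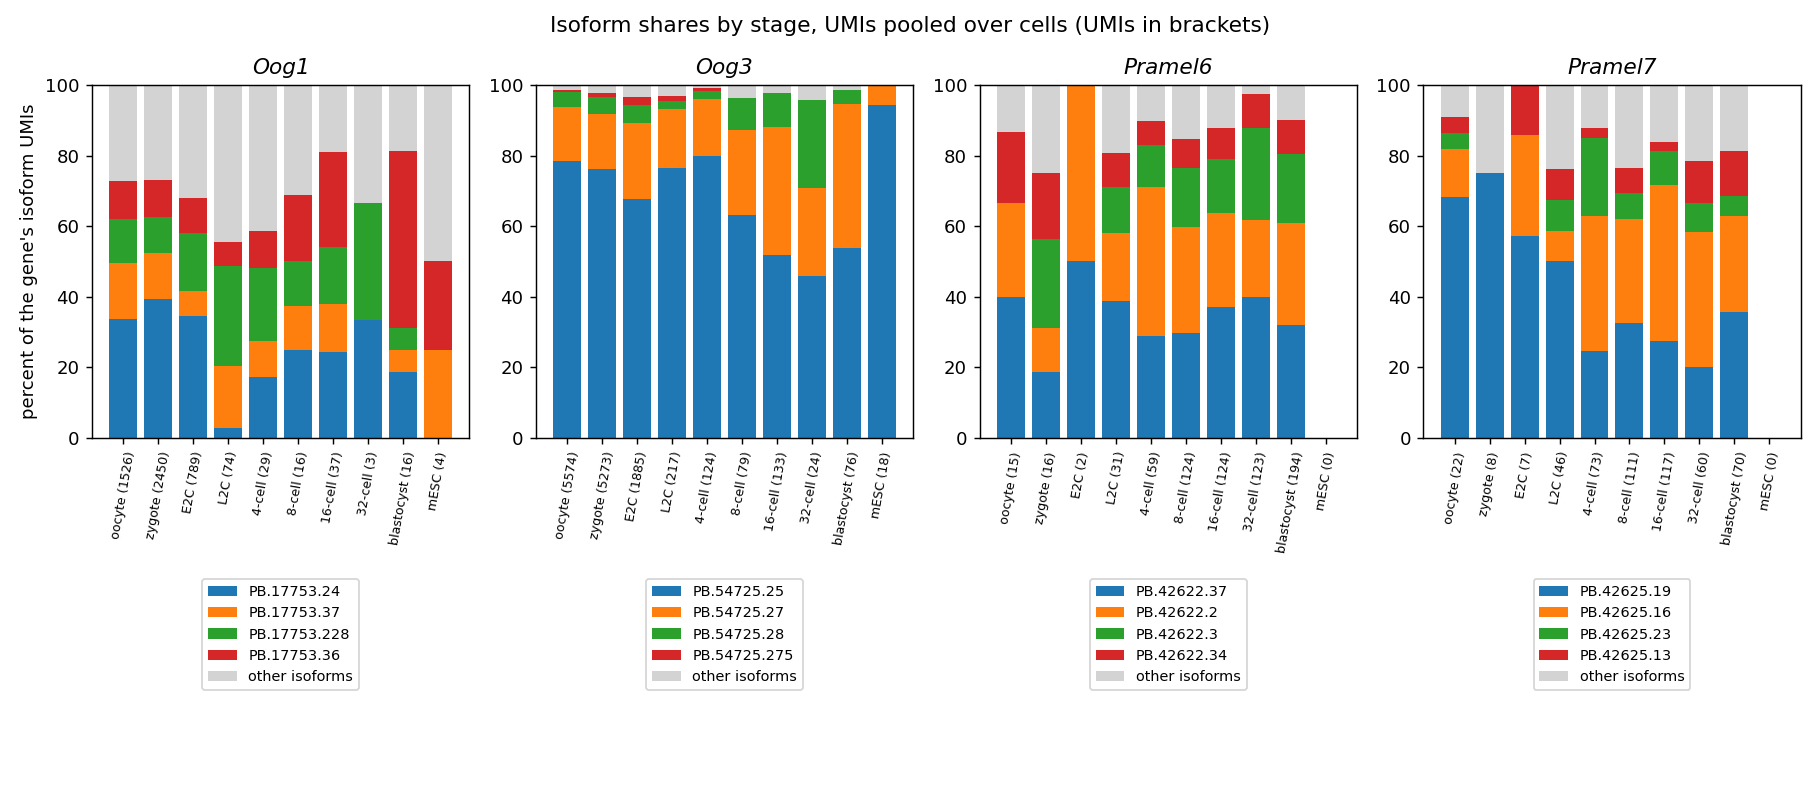
Share of each gene's isoform UMIs, pooled over the cells of a stage, taken by its 4 most abundant isoforms and by the others; the number of UMIs is in brackets. From oocyte to blastocyst the share of PB.17753.24 of Oog1 is smallest at L2C, and in mESCs it has no UMI. PB.42625.16 of Pramel7 takes a larger share from 4-cell to blastocyst than at L2C.

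The intact and split oocytes gave the maternal members again in a separate batch of raw counts, with 129744 to 289774 isoform UMIs in each. Levels there are sums over the isoforms of a gene, per 100,000 isoform UMIs, and are not the same measure as the gene levels above. This matters most for Pramef12, whose isoforms held 3.93% of its gene UMIs in the other batches. Oog3 averaged 419 ± 50.9 copies per 100,000 in intact oocytes (SD, n = 4), 400.3 ± 25.5 in 1/2 oocytes (n = 6) and 375 ± 35.6 in 1/4 oocytes (n = 6). Oog1 averaged 85.0 ± 10.8, 98.6 ± 13.02 and 109 ± 15.8, and Pramef12 29.3 ± 6.77, 41.4 ± 3.60 and 37.8 ± 5.62. None of the 5 maternal members passed an adjusted p of 0.05 in edgeR, nor did any of the 2767 genes tested (0 called), though 185 genes for 1/2 and 255 for 1/4 oocytes had an unadjusted p under 0.05, and DESeq2 called 0 and 7 genes. Of the members, Pramef12 in 1/2 oocytes (log2 fold change 0.51, edgeR adjusted p = 0.543), and Oog1 (0.39, adjusted p = 0.391) and Pramef12 (0.38, adjusted p = 0.513) in 1/4 oocytes, were among those with an unadjusted p under 0.05. Pramel7 had at most 2 counts in any column, and Pramel6 had no isoform in that table. The names do not say which pieces came from the same oocyte.

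Of 29 other PRAME family genes in the gene table, 21 were tested, and 11 were called lower and 3 higher at L2C than at E2C, beside 22.8% lower and 25.6% higher of all genes. Gm13023 (stage means of 191 at E2C and 10.9 at L2C), Gm13084 (95.1 and 5.39) and Gm10436 (232 and 35.8) were among those that fell. Of the family genes with a promoter in the table, the 10 tested genes that held at least 20 bases of the shared stretch were all called lower, by -5.91 to -2.77 on the log2 scale, the 4 Oog genes that the pattern was written from included. Of the 13 tested genes below that limit, 2 were called lower (Pramef12 and Pramef20) and 4 higher (Pramel6, Pramel7, Pramel4 and Gm13128). The limit of 20 bases was set after the matches had been seen, and Pramel6, called higher, lay just below it with 19. These counts describe the match, and no link between the stretch and the fall was tested.

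**Figure D5:**
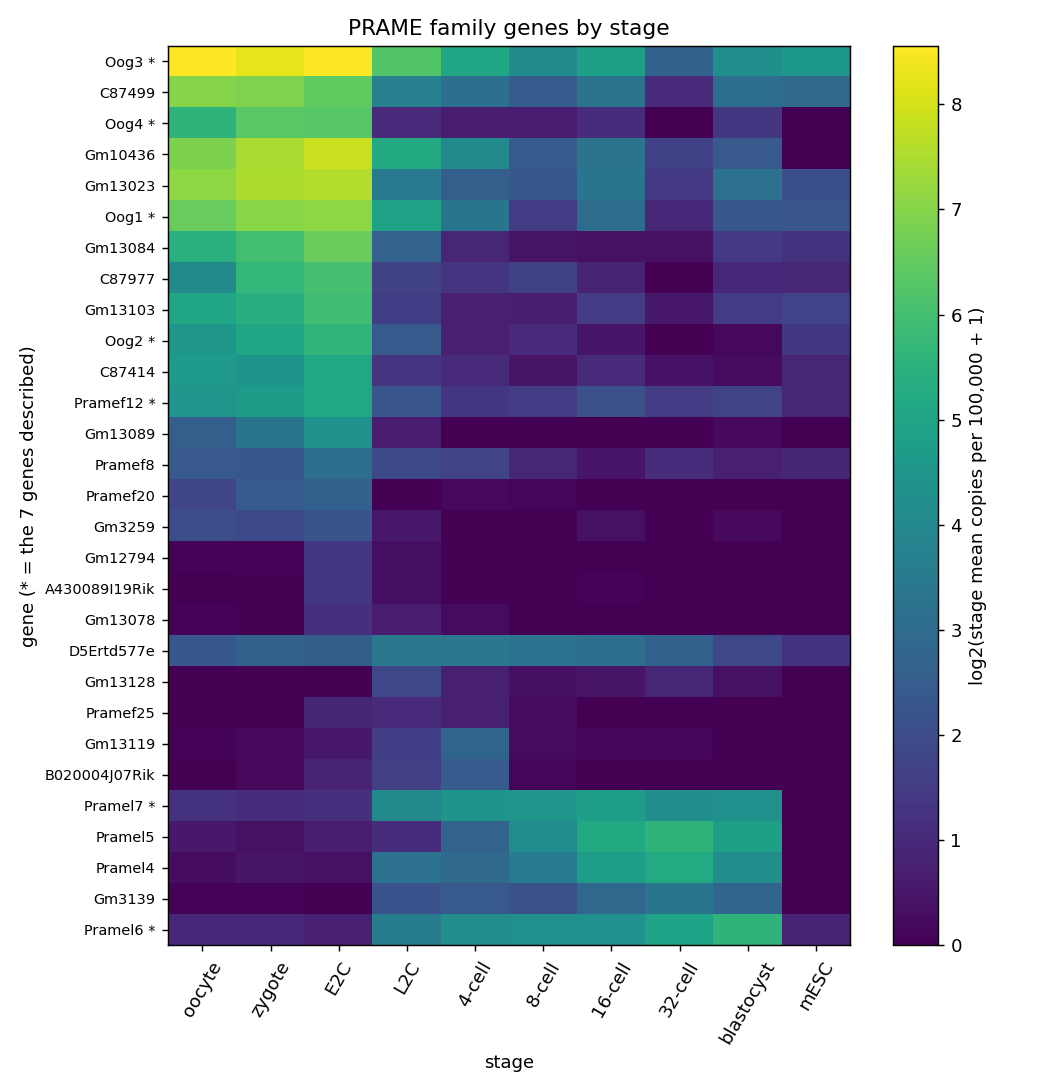
Stage means of the PRAME family genes with a mean of at least 1 copy per 100,000 in some stage, as log2(mean + 1), with the 7 genes marked by a star. Rows are ordered by the stage of the highest mean. Oog3, Oog1 and Gm10436 keep stage means of 73.5, 29.6 and 35.8 at L2C, while Oog4 is near 1.

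The list around the Pramel7 ligase and UHRF1 held Cul2, Elob, Eloc, Rbx1, Uhrf1, Dnmt1, Dppa3, Dnmt3a, Dnmt3b and Dnmt3l. Of these 10 genes, 2 rose and 2 fell between E2C and L2C, neither count above the share of all genes (25.6% higher, 22.8% lower). Elob (4.81 ± 0.43, adjusted p = 1.16e-14) and Eloc (1.58 ± 0.30, adjusted p = 1.02e-05), which encode the elongin subunits that link adaptors to the cullin, rose. Uhrf1 fell (-3.08 ± 0.37, adjusted p = 1.31e-10), from a stage mean of 17.3 to 1.23, as did the RING subunit gene Rbx1 (-1.12 ± 0.27, adjusted p = 3.52e-04). Cul2 stood at 1.67 in E2C and 1.80 in L2C embryos. Of the LIF to STAT3 genes, 4 of 5 were tested, and 3 were called lower and 1 higher beside the same 22.8% and 25.6% of all genes. Jak1 (-2.77 ± 0.36), Il6st (-1.94 ± 0.36) and Stat3 (-2.49 ± 0.43) fell, and Socs3, a target and inhibitor of STAT3, rose (3.38 ± 0.39, adjusted p = 5.40e-11). Of the Ral genes, 4 of 5 were tested and none was called at this step, with Ralgds at 2.05 in E2C and 4.16 in L2C embryos.

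The genes with the most similar pattern over the 10 stage means, by Pearson correlation of log2(mean + 1) among 4276 genes with at least 10 copies in their highest stage, are given as a description, since stages share libraries and depth. They were Wdr20, Parp12 and Chsy1 for Oog1 (r = 0.996, 0.993 and 0.992), Trafd1, Cep70 and Tgfb2 for Oog2 (0.991, 0.988 and 0.988), and Parp12, Spin1 and Wdr20 for Oog3 (0.995, 0.993 and 0.992). For Oog4 they were 3110001I22Rik, Nr2e3 and 4930579D07Rik (0.997, 0.996 and 0.994), and for Pramef12 Yipf6, Bcar3 and Pkd2l2 (0.992, 0.990 and 0.989). Pramel6 was most like Rpl39l, Gabarapl2 and Sord (0.983, 0.982 and 0.981), and Pramel7 most like AC124606.2, Tmem41b and Gm3106 (0.993, 0.990 and 0.986). Between Pramel6 and Pramel7 r was 0.944.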

How the data were processed

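The authors aligned PacBio reads to mm10 (minimap2), named genes with gffcompare, and made isoforms with cDNA_Cupcake and SQANTI3. They deposited both tables as CPM-type values, here copies per 100,000 UMIs of each cell. Columns of E2C, L2C and 4-cell embryos, classed here under score, were deposited on this scale too. The authors deposited batch 4 as whole UMI counts. All nonzero values (100%) were whole multiples of 1 UMI within 0.1, and these recovered UMIs gave the depth.

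Embryo means were compared between adjacent stages in 1 fit with limma 3.58.1 (R 4.3.3) on log2(value + 1), with trend and array weights, for features of at least 1 copy in at least 4 embryos. For isoform shares the limma fit used arcsine square roots, and batch 4 was tested with edgeR 4.0.16. DESeq2 1.42.0, edgeR on recovered UMIs and other settings were alternatives. On recovered UMIs edgeR called 4087 of 6234 genes from E2C to L2C, where limma on the normalized values called 5654 of 11682. Adjustment of p followed Benjamini and Hochberg across every feature tested. The fit was tested on simulated data. Embryos come from the cell names alone: that a number stands for 1 embryo, and cells that share it for sisters, is taken from them, and every n rests on it. The p-values measure the spread between these samples, which may in part be technical. The members, lists and tests were chosen with earlier results of these data known. All 7 members and their isoforms, the 3 genes most like each member, and PRAME family genes called or at 1 copy or more could be named, with the genes of the fixed pathway lists. Isoforms under 1% of a member's UMIs are given as counts.

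The main fit held no term for the sequencing run, so its oocyte to zygote changes and p-values are unpaired. Only in an alternative fit of oocytes and zygotes was the run, known from the study's cell lists, used as a block. No other stage allowed this.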

Additional observations from a re-analysis of the deposited data

Results flagged for a closer look

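In 66 groups of 4 to 10 samples, 10 values stood apart from the rest of their group by Dixon's criterion, which chance meets in about 1 in 20 groups. Of these, 3 were the highest values of L2C embryo 1, of which a single cell with 17971 UMIs was read: Oog1 at 77.9, Oog4 at 5.56 (1 UMI) and Pramel6 at 27.8. Oog1 was lowest in E2C embryo 3 (112). Oog2 was highest in 4-cell embryo 2 (2.45, 1 UMI) and in 16-cell embryo 1 (1.67, 7 UMIs). Oog3 was lowest in 8-cell embryo 2 (5.75). Pramef12 was highest in 16-cell embryo 3 (6.45, 5 UMIs). Pramel7 was highest in zygote 4 (4.64, 9 UMIs) and in 4-cell embryo 1 (36.9). The rate of 1 in 20 is for normally distributed values. It does not hold for groups mostly at 0, such as Oog2 at 16-cell and Oog4 at L2C.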

How the results depend on the processing

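All 7 members were called from E2C to L2C under each of the other settings tried except a pseudocount of 10 (6, without Pramel6), and leaving out an E2C or L2C embryo left 7; the L2C embryos and the cells under 10000 UMIs were left out after seeing the data. Over all settings the E2C to L2C change of Oog2 ran from -4.22 to -2.07, of Pramel6 from 0.75 to 4.15 and of Pramel7 from 1.14 to 4.13, with no change of sign. Later counts were small and moved. With a pseudocount of 10, 0 members were called from L2C to 4-cell, from 4-cell to 8-cell and from 8-cell to 16-cell. From L2C to 4-cell the count was 1 with no filter on low values and 1 from the summed isoform table, and 1 to 2 leaving out 1 embryo. From 4-cell to 8-cell it was 0 in edgeR and 1 in DESeq2, and 1 to 2 leaving out 1 embryo. From 8-cell to 16-cell it was 0 in DESeq2 and 0 with the median over cells, and 0 to 2 leaving out 1 embryo. With a pseudocount of 0.1, 2 member isoforms were called from oocyte to zygote and 3 from 4-cell to 8-cell. Leaving out 1 embryo gave 2 to 7 isoforms from zygote to E2C, 28 to 31 from E2C to L2C, 2 to 4 from L2C to 4-cell, 1 to 3 from 4-cell to 8-cell and 0 to 2 from 8-cell to 16-cell. The cause of these shifts was not tested. With the run as a block, 0 members were called from oocyte to zygote, as without it.

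Depth limits the late stages: a 4-cell blastomere held a median of 32466 UMIs, which makes levels of a few copies per 100,000 counts of 1 or a few UMIs.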

Other observations

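Several other PRAME family genes were read from the late 2-cell stage on. Pramel4 rose from a stage mean of 0.314 at E2C to 8.23 at L2C (log2 fold change 2.88 ± 0.40, limma adjusted p = 9.06e-09) and reached 36.2 in 32-cell blastomeres. Pramel5 rose later, from 1.11 at L2C to 5.55 at 4-cell and 17.1 at 8-cell (1.73 ± 0.45 at the second step, adjusted p = 0.00464), and stood at 46.4 in the 32-cell stage. Gm3139 followed Pramel4 at a lower level (1.83 ± 0.39 from E2C to L2C, adjusted p = 5.30e-05). Like Pramel7, these 3 genes had a mean of 0 in mESCs.

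Gm13119 and B020004J07Rik were highest at the 4-cell stage, at 5.71 and 4.53. Both fell by the 8-cell stage, with log2 fold changes of -2.64 ± 0.38 (adjusted p = 5.47e-07) and -2.50 ± 0.37 (adjusted p = 7.48e-07).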
